A study of Homo sapiens with 2 samples.

Results

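The nuclear-encoded subunits of the mitochondrial respiratory chain and the ATP synthase were followed across 2 tumor sections, as 34 genes chosen by symbol. The 34 were 12 genes named for complex I, 4 for complex II, 6 for complex III, 6 for complex IV and 6 for complex V, of 36601 human features in the count matrices. The list does not hold every subunit: 42 further nuclear genes of the same complexes and the 13 protein genes of the mitochondrial genome were kept as separate lists. No member was used to define a zone by its own level, although its UMIs are part of the totals that define the low-UMI area.

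The tumors, labelled Tumor-897 and Tumor-899, grew from a human breast cancer line of the triple-negative type, MDA-MB-231, engineered for hypoxia fate-mapping, in which a cell that meets low oxygen changes its fluorescence for good. Both received no treatment and were taken 18 days after implantation, both carry the same engineered cells, and they form 1 group of n = 2, so no tumor served as a control. Each tumor gave 1 fresh frozen section of 10 µm on a Visium slide, where every barcoded spot captures polyadenylated RNA from a small patch that can hold several cells, host cells included. The labels do not say whether the tumors came from separate animals, so p-values speak for these 2 sections alone. Both p-values and SEs rest on a spread pooled partly or wholly over genes, not only on a gene's own spread between the tumors. No fluorescence image entered the work, so the fate of the cells under a spot is not known here.

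Electrons enter the chain at complex I from NADH and at complex II from succinate, pass through complex III and cytochrome c, and reduce oxygen to water at complex IV. The proton gradient built by complexes I, III and IV drives complex V, the ATP synthase. Complex II is encoded wholly in the nucleus and is also an enzyme of the TCA cycle, whereas the other 4 complexes combine nuclear subunits, imported after translation in the cytosol, with subunits made inside the mitochondrion. Under hypoxia, HIF-1 is known to lower electron supply to the chain through PDK1 and to exchange some subunits, as with NDUFA4L2 and COX4I2. NRF1 and the ETS factor GABPA are the textbook activators of nuclear subunit genes.

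The promoters of 4 of the members that passed a test below are shown. UQCRQ and COX8A moved in opposite directions in the low-UMI area, ATP5MC1 was lower where the hypoxia score was high, and SDHD was higher deep in the tissue. By score and by depth, the share of members that passed was near or under that over all genes. Each promoter runs 5′ to 3′ on the gene's strand from 250 bases before the RefSeq start to 50 bases into the gene (RefSeq, GRCh38.p14). All 4 lie on the plus strand, at chr5:132866392-132866691 for UQCRQ, chr11:63974370-63974669 for COX8A, chr17:48892537-48892836 for ATP5MC1 and chr11:112086623-112086922 for SDHD. Capitals mark matches on either strand to 1 of 4 motifs: the NRF1 core GCGCANGCG, the ETS motif CCGGAAG bound by GABPA, the hypoxia response element core ACGTG, and the YY1 motif AAGATGGCG.

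UQCRQ: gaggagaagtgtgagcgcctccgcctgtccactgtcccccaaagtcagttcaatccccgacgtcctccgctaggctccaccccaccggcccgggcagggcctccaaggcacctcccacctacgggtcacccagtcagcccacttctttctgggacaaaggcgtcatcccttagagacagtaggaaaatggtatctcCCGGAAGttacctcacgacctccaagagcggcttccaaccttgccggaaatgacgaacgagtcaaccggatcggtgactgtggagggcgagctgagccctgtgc

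COX8A: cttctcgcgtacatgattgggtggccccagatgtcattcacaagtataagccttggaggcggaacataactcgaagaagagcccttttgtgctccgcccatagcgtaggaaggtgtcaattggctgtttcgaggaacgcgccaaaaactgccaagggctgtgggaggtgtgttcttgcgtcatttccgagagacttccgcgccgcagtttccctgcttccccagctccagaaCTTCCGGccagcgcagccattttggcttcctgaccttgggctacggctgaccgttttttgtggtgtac

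ATP5MC1: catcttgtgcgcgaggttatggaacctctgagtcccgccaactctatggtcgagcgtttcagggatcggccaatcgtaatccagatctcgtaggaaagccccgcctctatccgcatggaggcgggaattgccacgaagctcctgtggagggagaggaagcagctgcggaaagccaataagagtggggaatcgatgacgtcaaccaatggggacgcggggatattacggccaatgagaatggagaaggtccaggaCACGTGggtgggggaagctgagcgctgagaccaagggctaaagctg

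SDHD: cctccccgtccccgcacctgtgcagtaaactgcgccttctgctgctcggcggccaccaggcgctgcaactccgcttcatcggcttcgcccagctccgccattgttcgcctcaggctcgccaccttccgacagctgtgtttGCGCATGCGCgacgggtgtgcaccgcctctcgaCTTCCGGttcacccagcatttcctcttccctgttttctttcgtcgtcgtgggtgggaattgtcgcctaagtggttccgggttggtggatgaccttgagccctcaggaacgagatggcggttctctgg

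In UQCRQ the capitals are an ETS match that starts 54 bases before the start. COX8A holds the same motif on the other strand, 18 bases before the start. In ATP5MC1 the capitals are the hypoxia response element core read on both strands, from 4 bases after the start, and in SDHD they are an NRF1 core that matches on both strands, from 110 bases before the start, followed by an ETS match at 77 bases before it. Among the 27 members with a promoter in the table, the NRF1 core occurred in 25.9% (8.05% of all 27305 promoters of that length), the ETS motif in 33.3% (10.7%), the YY1 motif in 14.8% (1.85%) and the hypoxia response element core in 25.9% (21.6%). These matches are descriptions of letters and show no binding.

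Tumor-897 gave 58661164 unique molecular identifiers (UMIs, single captured RNA molecules) over 2536 spots, and Tumor-899 gave 39736292 UMIs over 2846 spots. Of the latter, the 2841 spots with at least 500 UMIs were kept. Every member was found in every zone, with between 65 UMIs (NDUFA9 inside the low-UMI area of Tumor-899) and 101520 UMIs (UQCRQ outside that of Tumor-897). The genes fixed as marks of the line were high, with VIM at 5639 and 5548 unscaled CPM (the usual counts-per-total unit, UMIs of a gene relative to all UMIs of the spots summed), and ESR1, PGR and CDH1, which this line is known to lack, were at 0.126 unscaled CPM or less, while ERBB2 (26.2 and 25.3), EPCAM (19.7 and 17.8) and GATA3 (5.80 and 5.76) were present at low levels. The sections shared 1624 barcodes, which name fixed positions of the slide and not cells. Levels of members below are CPM after TMM scaling, and no gene's level is set against another gene's, since UMIs here are not per length. In bulk sums over spots, fewer cells of a type and less RNA per cell cannot be told apart.

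The low-UMI area was the set of spots whose UMIs, averaged with the adjacent spots, lay under a threshold found in each tumor by Otsu's method, 11400.4 UMIs in Tumor-897 and 5195 in Tumor-899. It took 566 and 856 spots. The median spot held 4815 UMIs inside and 27364.5 outside in Tumor-897, and 1470 inside and 19973 outside in Tumor-899. It gave the largest number of member calls of the 3 main comparisons: 9 of 34 members fell and 1 rose inside against outside (edgeR quasi-likelihood test, Benjamini-Hochberg adjusted p under 0.05 over 15318 genes), where 2.77% of all genes tested were called lower and 4.33% higher. Of the 10 genes fixed as marks of the line, 2 were called higher and 4 lower, so frequent calls were not particular to the members. No share was taken over genes of like UMI count. The median over the 34 members was -0.07 on the log2 scale against -0.02 over all genes, and 20 members were lower in both tumors. In this fit the prior degrees of freedom were unbounded and the residual degree of freedom was 1. The p-values and SEs therefore rest on the spread common to all genes, and an SE is not a gene's spread between the tumors. Without the tumor as a block no member was called in either direction.

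**Figure D1:**
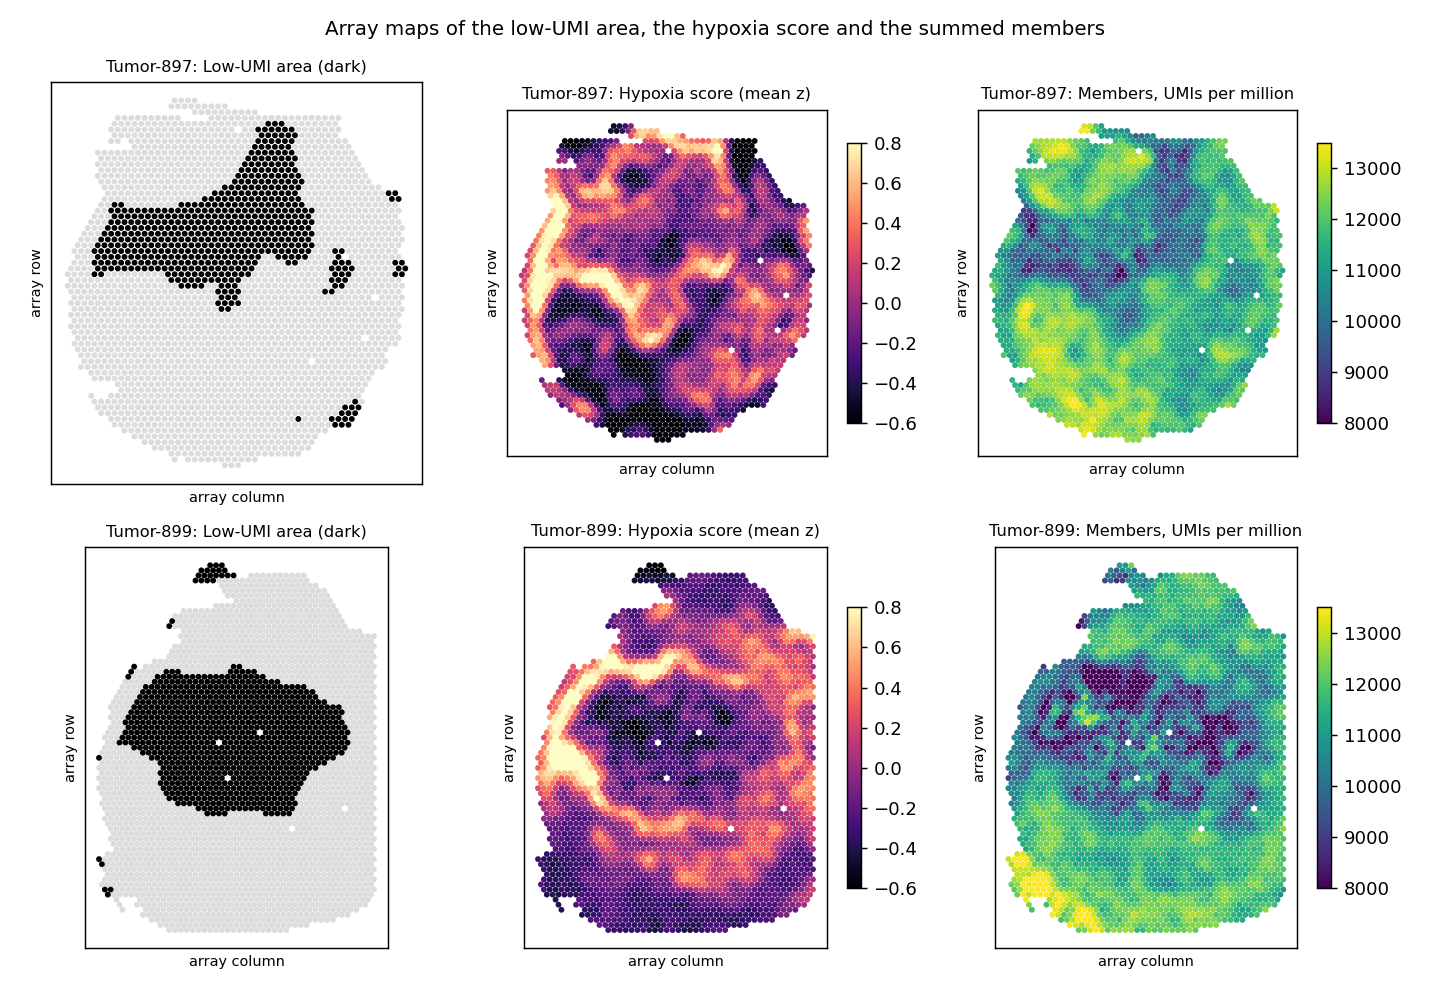
Array maps of the 2 sections, Tumor-897 above and Tumor-899 below, each point a spot at its array column and row. Left, the low-UMI area in black; middle, the hypoxia score (mean z of its genes, smoothed over adjacent spots); right, unscaled CPM of the 34 members summed, averaged over adjacent spots, with both color scales clipped at their ends. The summed members are low in most of the low-UMI area of both sections, and the highest scores form bands beside that area.

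Complex I held 5 of the 9 members that fell. NDUFS5, an accessory subunit on the intermembrane side (ENSG00000168653, chromosome 1, 39026350 to 39034615), was at 758 CPM outside and 568 inside the area in Tumor-897, and at 585 outside and 412 inside in Tumor-899. Both inside values lay below both outside values, a log2 difference of -0.46 ± 0.08 (SE, n = 2 tumors, edgeR adjusted p = 5.76e-07). NDUFB3, an accessory subunit of the membrane arm (ENSG00000119013, chromosome 2, 201072001 to 201085750), went from 186 to 133 CPM in Tumor-897 and from 152 to 113 in Tumor-899, again without overlap. Its log2 difference was -0.46 ± 0.09 (edgeR adjusted p = 3.45e-05). NDUFA6, which holds the mitochondrial acyl carrier protein to the matrix arm, went from 190 to 143 and from 163 to 123 CPM (-0.41 ± 0.09, edgeR adjusted p = 0.000295).

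The other 2 complex I members that fell were NDUFA1 and NDUFS3. NDUFA1, a small membrane-arm subunit encoded on the X chromosome and needed for assembly, went from 430 to 322 CPM in Tumor-897 and from 327 to 275 in Tumor-899, a log2 difference of -0.42 in the former and -0.25 in the latter (edgeR adjusted p = 0.00119). NDUFS3, a core subunit of the matrix arm, went from 103 to 84.3 and from 106 to 83.3 CPM (-0.31 ± 0.10, edgeR adjusted p = 0.0318). The 7 complex I members that did not pass had log2 differences between -0.19 (NDUFB10) and 0.04 (NDUFV1, the flavoprotein subunit that takes electrons from NADH). NDUFS1, the iron-sulfur subunit next in the path, was 0.12 in Tumor-897 and -0.28 in Tumor-899, with 220 and 85 UMIs inside, so its direction differed between the tumors. NDUFA4, named for complex I but now placed in complex IV, was at -0.03.

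No complex II member passed in the low-UMI comparison, and the tumors parted for its membrane anchors. SDHD, 1 of the 2 membrane anchors, was at 130 CPM outside and 127 inside in Tumor-897 but at 144 outside and 187 inside in Tumor-899. SDHC, the other anchor, was at 114 and 108 CPM outside and inside in Tumor-897 and at 118 and 144 in Tumor-899. The difference between the tumors was not tested. SDHB, the iron-sulfur subunit, had a log2 difference of 0.07 and SDHA, the flavoprotein that oxidises succinate, of -0.18, each with the same sign in both tumors.

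UQCRQ was the 1 complex III member of 6 that fell. It encodes a small subunit that binds near cytochrome b (ENSG00000164405, chromosome 5, 132866642 to 132868847). Its level was 1818 CPM outside and 1468 inside in Tumor-897, and 1659 outside and 1099 inside in Tumor-899, with the inside values below both outside values. The log2 difference was -0.45 ± 0.07 (edgeR adjusted p = 8.1e-08), and within the tumors it was -0.31 and -0.59. The other 5, among them the core proteins UQCRC1 and UQCRC2, the Rieske protein UQCRFS1 and cytochrome c1 (CYC1), lay between -0.11 and 0.14, and none passed.

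In complex IV, COX6C and COX7B fell while COX8A rose, all 3 being small accessory subunits around the catalytic core. COX6C went from 833 to 724 CPM in Tumor-897 and from 657 to 531 in Tumor-899 (log2 difference -0.25 ± 0.08, edgeR adjusted p = 0.0202). COX7B went from 619 to 532 and from 513 to 393 CPM (-0.30 ± 0.08, edgeR adjusted p = 0.00474). COX8A (ENSG00000176340, chromosome 11, 63974620 to 63976543) was at 527 CPM outside and 627 inside in Tumor-897, and at 577 outside and 722 inside in Tumor-899, so that both inside values exceeded both outside values. Its log2 difference was 0.29 ± 0.08 (edgeR adjusted p = 0.00545), and it kept its sign but was not called with library size alone as the scaling, which shifts the median of all genes by -0.11. COX4I1, COX5A and COX5B, near 0 at -0.07, -0.05 and -0.03, did not pass.

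ATP5F1A, the alpha subunit of the ATP synthase head, was the 1 complex V member of 6 that fell: 331 CPM outside and 279 inside in Tumor-897, and 345 outside and 285 inside in Tumor-899 (log2 difference -0.26 ± 0.08, edgeR adjusted p = 0.0245). ATP5F1B, the catalytic beta subunit, had a similar value (-0.21 ± 0.08) with an edgeR adjusted p of 0.0758. ATP5PO and ATP5PB, parts of the peripheral stalk, were at -0.18 and -0.02, ATP5MC1, a gene of the membrane ring, at -0.19, and ATP5F1C, the rotating gamma subunit, at 0.06.

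**Figure D2:**
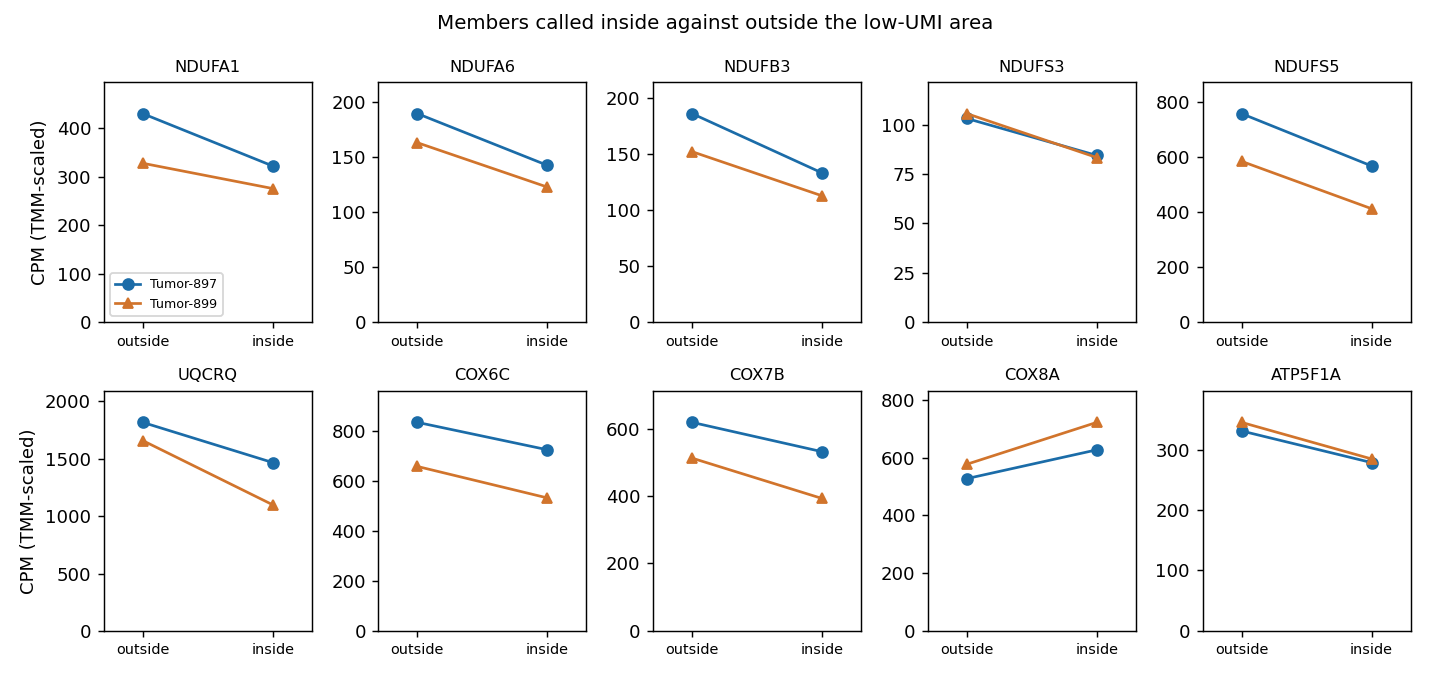
Level in CPM after TMM scaling (vertical axis, from 0) outside and inside the low-UMI area for the 10 members called there, 1 line per tumor (blue circles Tumor-897, orange triangles Tumor-899), each point 1 sum over spots. The lines fall for 9 genes in both tumors and rise for COX8A.

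The depth of reading limits this comparison, since the area held 3141884 UMIs in Tumor-897 and 1507195 in Tumor-899. When every spot was thinned to 1000 UMIs, and shallower spots were left out, NDUFS5 (-0.48) and UQCRQ (-0.42) were still called lower and no member was called higher, where 36 of 9831 genes were called lower. With at least 2000 UMIs per spot, 5 members were called lower (NDUFA1, NDUFA6, NDUFB3, NDUFS5 and UQCRQ) and none higher, where 173 of 15171 genes were called lower. DESeq2 called the same 5 lower and COX8A higher, where 69 of 4909 genes were called lower. NDUFS5 and UQCRQ were called in 10 of 11 other settings, and library size alone moved the split over all genes from 663 higher and 424 lower to 390 and 998.

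The remaining genes of the chain were set beside the members. Of 42 other nuclear subunits, 8 fell and none rose, with a median of -0.05; the largest differences were those of NDUFB1 (-0.53 ± 0.08, edgeR adjusted p = 1.39e-09) and UQCR10 (-0.46 ± 0.08, edgeR adjusted p = 1.88e-06), small subunits of complexes I and III. The 13 protein genes of the mitochondrial genome went the other way: 13 of 13 rose inside, by a median of 0.80, and by 0.54 in Tumor-897 and 1.08 in Tumor-899, with MT-ATP8 (2.48) and MT-ND6 (2.25) the largest. Of 49 assembly factors 1 rose and 4 fell, with NDUFAF8 (-0.57) and COX19 (-0.55) the largest; of 14 biogenesis regulators 2 rose and 2 fell, with MYC at 0.56 and TWNK, the mitochondrial DNA helicase, at -0.46; and of 16 TCA cycle and pyruvate dehydrogenase genes 1 fell, OGDH (-0.40), with IDH3G at 0.29 not passing.

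MALAT1, a long noncoding RNA that stays in the nucleus, rose inside the low-UMI area, from 1705 to 3041 CPM in Tumor-897 and from 925 to 2694 in Tumor-899 (log2 difference 1.19 ± 0.07, edgeR adjusted p = 2.08e-58). NEAT1, another such RNA, was at 0.03 and did not pass. Fibroblast markers were at 921 and 973 unscaled CPM outside and inside in Tumor-897 and at 1072 and 2142 in Tumor-899, and the 6 lists of other cell types differed most between the tumors in the 10 skeletal muscle genes (14.4 and 12.4 against 238 and 113). Their part in the members' result was not tested beyond leaving out the spots richest in those markers. After that 10 members were called lower and 1 higher, where 490 of 15085 genes were called lower and 720 higher. The other lists moved differently in the tumors. In Tumor-899 macrophage markers were at 229 unscaled CPM outside and 309 inside, red blood cell markers at 35.2 and 81.6, adipocyte markers at 11.8 and 21.9 and endothelial markers at 13.3 and 11.9. In Tumor-897 the same lists were at 266 and 259, 63.9 and 49.97, 12.4 and 13.05, and 13.2 and 12.7. Of their genes ADIPOQ (3.22), VWF (2.47), HBA1 (1.69) and APOE (0.43) were called higher inside, as were the fibroblast genes COL3A1 (1.17) and COL1A1 (0.40). The SEs of ADIPOQ (0.60), VWF (0.79) and HBA1 (0.48) were large, and their lists were at low levels throughout. In the low-UMI term of the joint fit below, ADIPOQ was called, while VWF, HBA1 and APOE were not. APOE was at -0.40 in Tumor-897 and 1.37 in Tumor-899, and HBA1 at 0.27 and 3.05. Of the genes tested, 6 of 11 macrophage, 2 of 5 endothelial and 1 of 3 red blood cell genes were below 0. So were 4 of 11 fibroblast and 0 of 4 adipocyte genes. The skeletal muscle genes ACTA1 (-0.99), TTN (-2.40) and TNNT3 (-1.88) were called lower. In Tumor-899, 4 of 8 endothelial and 4 of 12 macrophage genes were at 0 inside the area.

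Along the distance to the area, the summed members were lower just outside it than far outside, and lower still inside. In Tumor-897 the 34 genes summed to 12256 CPM at 11 or more steps outside, 11629 at 1 to 2 steps outside, 10742 at 1 to 3 steps inside and 10285 at 4 or more steps inside. In Tumor-899 the same classes held 11170, 10689, 9895 and 9142 CPM. The mitochondrial genome summed to 24230, 23663, 29852 and 36606 CPM in Tumor-897 and to 15502, 14310, 26736 and 32908 in Tumor-899, so that it was lower at the outer border than far outside and higher inside. UQCRQ went from 1957 to 1700, 1449 and 1476 CPM over those classes in Tumor-897 and from 1797 to 1438, 1160 and 997 in Tumor-899. COX8A ran the other way in Tumor-899, from 549 to 645, 708 and 722 CPM, and in Tumor-897 from 527 to 550, 604 and 679. Complex II summed to 474 CPM far outside and 530 deep inside in Tumor-899, and to 444 and 406 in Tumor-897.

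**Figure D3:**
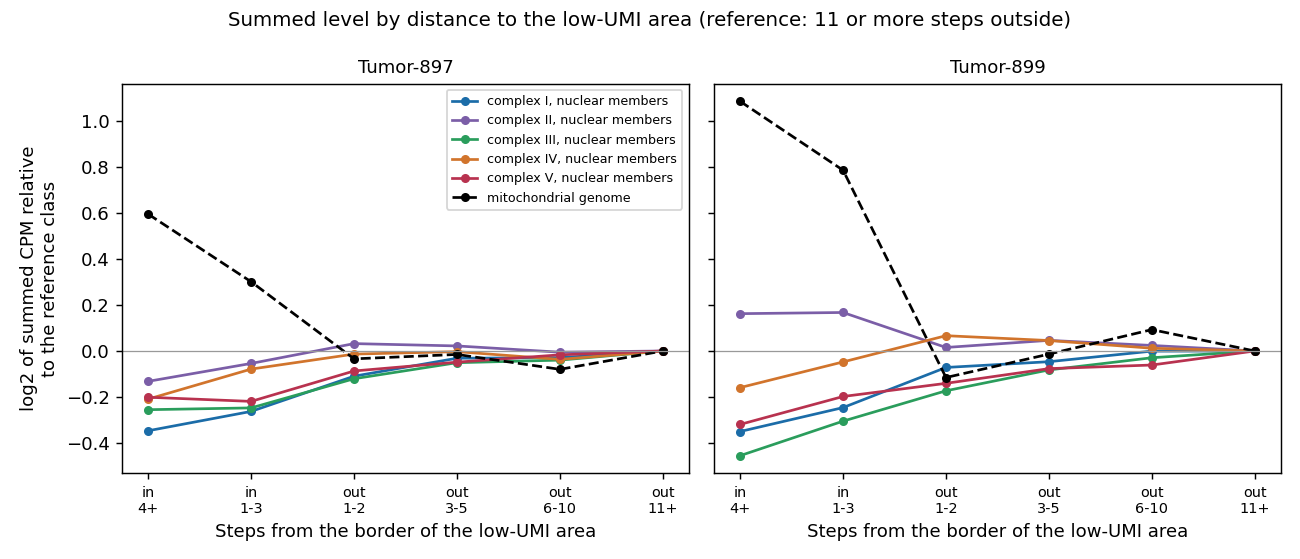
Summed CPM of the members of each complex (colors) and of the 13 mitochondrial protein genes (black, dashed) by distance in steps from the border of the low-UMI area, as log2 relative to spots 11 or more steps outside, for each tumor; points are sums over spots and have no error. Complexes I, III and V decline toward and inside the area in both tumors, and the mitochondrial genome is higher inside. UQCRQ gives most of the complex III sum, and 3 of the 6 complex III members had log2 differences above 0 inside against outside.

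The hypoxia score was the mean of 27 hypoxia-induced genes such as CA9, ADM, VEGFA and PGK1, smoothed over adjacent spots, and its top quartile was set against its bottom quartile in each tumor (634 spots a side in Tumor-897 and 711 in Tumor-899). The listed score genes differed by a median of 1.87 between the quartiles, which the choice of spots fixes. Over the members the differences were small: the median was -0.06 (all genes 0.0033), the range -0.33 to 0.17, and 18 members were lower and 12 higher in both tumors. Against this score 2 members fell and none rose (edgeR adjusted p under 0.05), where 5.21% of 14167 genes were called lower and 6.92% higher, so the members' share of calls was near or under the background. At an unadjusted p under 0.05 there were 8 of 34 members and 3979 of 14167 genes, and DESeq2 called none in either direction.

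Both members that fell belong to the ATP synthase. ATP5MC1 encodes the c subunit of the proton-driven ring (ENSG00000159199, chromosome 17, 48892787 to 48895871). It was at 327 CPM in the bottom and 260 in the top quartile of Tumor-897, and at 263 and 211 in Tumor-899. Each tumor showed the same step (-0.33 and -0.32), although the top value of Tumor-897 and the bottom value of Tumor-899 lay close together; the log2 difference was -0.33 ± 0.08 (edgeR adjusted p = 0.0255). ATP5F1A was at 362 and 302 CPM in Tumor-897 and at 384 and 318 in Tumor-899, both top values lying below both bottom values (-0.27 ± 0.08, edgeR adjusted p = 0.0499). ATP5MC1 was called in 14 of 16 other settings and ATP5F1A in 10, the former lost without the tumor block and under DESeq2.

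The other complex V members were mixed: ATP5F1B -0.19, ATP5F1C -0.15, ATP5PB -0.09 and ATP5PO 0.14, none passing. Along score deciles the 6 genes summed to 1968 CPM in the lowest and 1666 in the highest decile of Tumor-897, and to 1907 and 1653 in Tumor-899. ATP5MC1 alone went from 329 to 234 and from 254 to 193 CPM over the same ends. Complex I summed to 3435 and 3153 CPM at the ends in Tumor-897 and to 2908 and 2766 in Tumor-899, and complex III to 3266 and 2804 and to 2923 and 2621, so these also were lowest in the highest decile. UQCRQ gave most of the complex III sum. From the lowest to the highest quartile it went from 1956 to 1758 CPM in Tumor-897 and from 1844 to 1625 in Tumor-899. By gene, 3 complex III members had log2 differences above 0 and 3 below in the score comparison. Complex IV summed to 3492 and 3476 CPM at the ends in Tumor-897 and to 3293 and 3365 in Tumor-899.

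**Figure D4:**
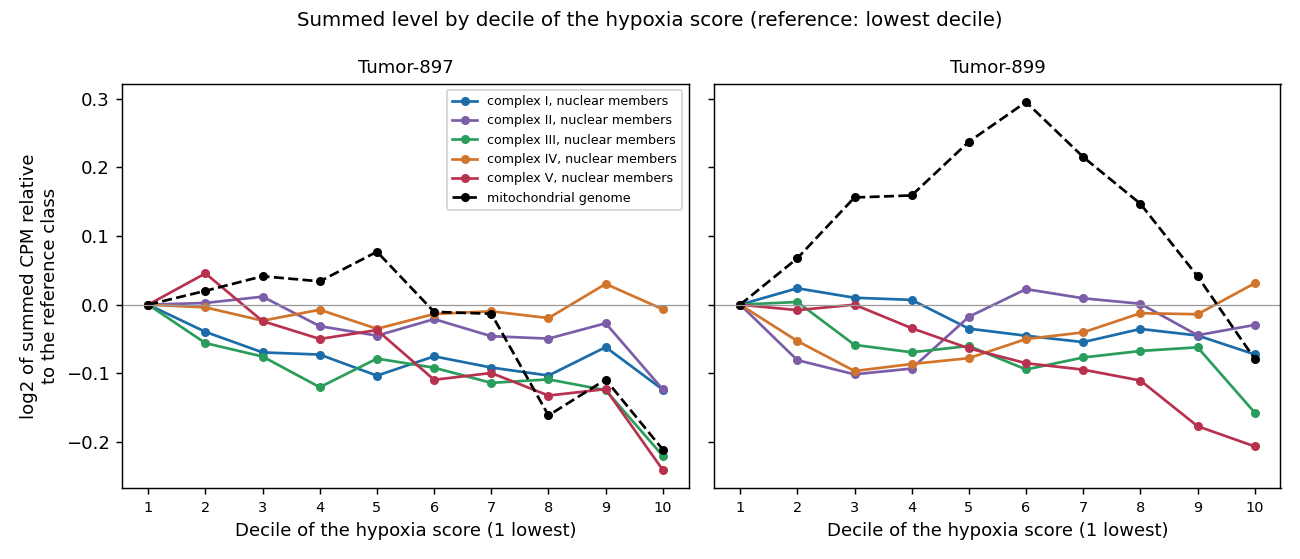
Summed CPM of the members of each complex (colors) and of the 13 mitochondrial protein genes (black, dashed) by decile of the hypoxia score, as log2 relative to the lowest decile, for each tumor; points are sums over spots and have no error. Complexes I, III and V are lowest in the highest decile of both tumors, and complex IV is not. UQCRQ gives most of the complex III sum.

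Complexes I to IV held no member that passed against the hypoxia score. The nearest in complex I were NDUFA6, at 205 CPM in the bottom and 180 in the top quartile of Tumor-897 and at 192 and 151 in Tumor-899 (-0.27 ± 0.08, edgeR adjusted p = 0.0587), and NDUFS3 (-0.21 ± 0.08). The other 10 lay between -0.14 and 0.05. In complex II, SDHB was at -0.18 in both tumors together, with 123 and 109 CPM in Tumor-897 and 145 and 127 in Tumor-899, while SDHD was at -0.02 in Tumor-897 and 0.33 in Tumor-899. Complex III ranged from -0.16 (UQCRQ) to 0.12 (UQCRB, a small matrix-side subunit). In complex IV, COX5A was at -0.22 ± 0.08 (363 to 310 CPM in Tumor-897, 393 to 339 in Tumor-899) and COX5B, the zinc-binding subunit, was at 0.17 ± 0.08 (569 to 625 and 496 to 574 CPM). With the 4 quartiles in 1 fit, whose further degrees of freedom come from zones of the same 2 sections, 8 members were called lower, COX5A among them, and 1 higher, COX5B, where 1565 of 14707 genes were called lower and 1756 higher.

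Scaling and zones touch these values. With library size alone 10 members were called lower, and all genes shifted by a median of -0.11, the split over all genes going from 981 higher and 738 lower to 784 and 2144. The bottom quartile of Tumor-899 lay for 48.9% of its spots in the low-UMI area (11.2% in Tumor-897). Without that area ATP5MC1 was the 1 member called, where 411 of 14084 genes were called lower and 654 higher. Skeletal muscle markers were at 1044 unscaled CPM in the bottom and 24.97 in the top quartile of Tumor-899 (13.5 and 14.6 in Tumor-897), fibroblast markers at 1953 and 785 in Tumor-899 and 959 and 1088 in Tumor-897, and MALAT1 with NEAT1 at 1503 and 2396 in Tumor-897 and 751 and 1602 in Tumor-899. Without the spots richest in other cell markers, ATP5MC1 (-0.27), ATP5F1A (-0.27) and NDUFA6 (-0.24) were called lower and COX5B (0.21) higher. Of 13932 genes, 1241 were called lower and 1494 higher in that setting.

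The subunit exchange known from hypoxic cells was looked for in 9 tissue or hypoxia isoforms and partners. NDUFA4L2, the hypoxia-induced relative of NDUFA4, was at 1.09 CPM in the bottom and 3.18 in the top quartile of Tumor-897, and at 0.867 and 2.99 in Tumor-899, from 20, 39, 6 and 35 UMIs. It was 3.07-fold higher (log2 1.62 ± 0.35, edgeR adjusted p = 0.018), while its counterpart NDUFA4 was at -0.04. COX4I2, the hypoxic partner of COX4I1, was at 0.017 unscaled CPM in Tumor-897 and at 0 in Tumor-899, COX7A1 was at 0 in both, COX6A2 was at 0.017 and 0.579, and COX8C at 0.017 and 0.126. LONP1, the protease known to remove COX4I1 protein, was at 0.18, HIGD1A at -0.19, COX7B2 at -0.11 and COX6B2 at 0.22, none passing.

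Among the other lists in the score comparison, 1 of 42 other nuclear subunits fell, NDUFS6 of the complex I matrix arm (-0.29 ± 0.08, edgeR adjusted p = 0.0379), with NDUFB1 next at -0.25. Of 49 assembly factors 1 fell, NDUFAF8 (-0.53), with NDUFAF5 at -0.43, and 1 of 13 mitochondrial genome genes, MT-CYB (-0.28), with MT-ND6 at -0.58 not passing. Of 14 biogenesis regulators 1 rose, while the largest differences of that list, PPARGC1A (-0.54) and NRF1 (-0.38), did not pass. Of 16 TCA cycle and pyruvate dehydrogenase genes 1 rose and 2 fell: SUCLG2 was at 0.36 and OGDH, which feeds NADH to complex I, at -0.62.

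Depth was counted in steps to the tissue border, and the inner tertile of spots was set against the outer tertile. In this comparison 1 member, SDHD, rose inward and none fell, where 2.25% of 14730 genes were called higher and 3.32% lower (edgeR adjusted p under 0.05). The members' share of calls was thus near or under the background. At an unadjusted p under 0.05 there were 6 of 34 members and 2881 of 14730 genes, and DESeq2 called no member. SDHD (ENSG00000204370, chromosome 11, 112086873 to 112095794) was at 123 CPM in the outer and 144 in the inner tertile of Tumor-897, and at 136 and 170 in Tumor-899. Both inner values exceeded both outer ones, and the log2 difference was 0.28 ± 0.07 (edgeR adjusted p = 0.0205). Without the low-UMI area, which held 42.1% and 56.6% of the inner spots, it was 0.27 (edgeR adjusted p = 0.0106). Over the 12 other settings the adjusted p ranged from 0.000631 to 0.553 and the log2 difference from 0.23 to 0.56, and 8 of them kept the call.

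By depth class SDHD was at 121, 125, 134, 146 and 143 CPM from the border inward in Tumor-897 and at 119, 136, 145, 152 and 168 in Tumor-899. SDHC (0.11) and SDHB (0.09) had the same sign without passing, and SDHA was at -0.12. The complex I members showed 12 of 12 values below 0, none passing, with a median of -0.09 against 0.00096 over all genes. Below 0 were also 32 of 42 other nuclear subunits and 7349 of 14755 genes in the fit. Within Tumor-899 NDUFA2 was above 0, at 0.06. NDUFS3 (-0.23 ± 0.07, edgeR adjusted p = 0.0597) and NDUFA6 (-0.22 ± 0.07, edgeR adjusted p = 0.0673) were the lowest. With the frame edge counted as border, NDUFA6, NDUFS3, NDUFS5 and UQCRQ were called lower, where 791 of 14771 genes were.

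Complexes III to V had no called member by depth. Complex III lay between -0.17 (UQCRQ, 1941 to 1719 CPM in Tumor-897 and 1751 to 1569 in Tumor-899) and 0.12 (UQCRB), complex IV between -0.15 (COX7B) and 0.07 (COX6C), and complex V between -0.10 (ATP5MC1) and 0.10 (ATP5PB). NDUFA4L2 fell inward (-1.03 ± 0.30, edgeR adjusted p = 0.0468), at 2.80 to 1.25 CPM in Tumor-897 and 2.66 to 1.46 in Tumor-899. Of 42 other nuclear subunits none was called by edgeR, with NDUFB5 at 0.23 and NDUFB11 at -0.22, both named for complex I. Assembly factors had 2 higher and 2 lower (TMEM126B 0.33, UQCC2 -0.35), the TCA list 1 each way (SUCLG2 0.34, OGDH -0.26), the mitochondrial genome 3 higher (MT-ND6 0.71, MT-ATP8 0.68), and the regulators none (PPARGC1B 0.34, TFB2M 0.25). Fibroblast markers were at 1472 unscaled CPM in the outer and 549 in the inner tertile of Tumor-897 and at 1990 and 407 in Tumor-899, skeletal muscle markers at 15.3 and 11.5 and at 467 and 26.3, and MALAT1 with NEAT1 at 1774 and 2177 and at 918 and 1670. Their part was not tested beyond leaving out marker-rich spots, where SDHD was at 0.23.

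**Figure D5:**
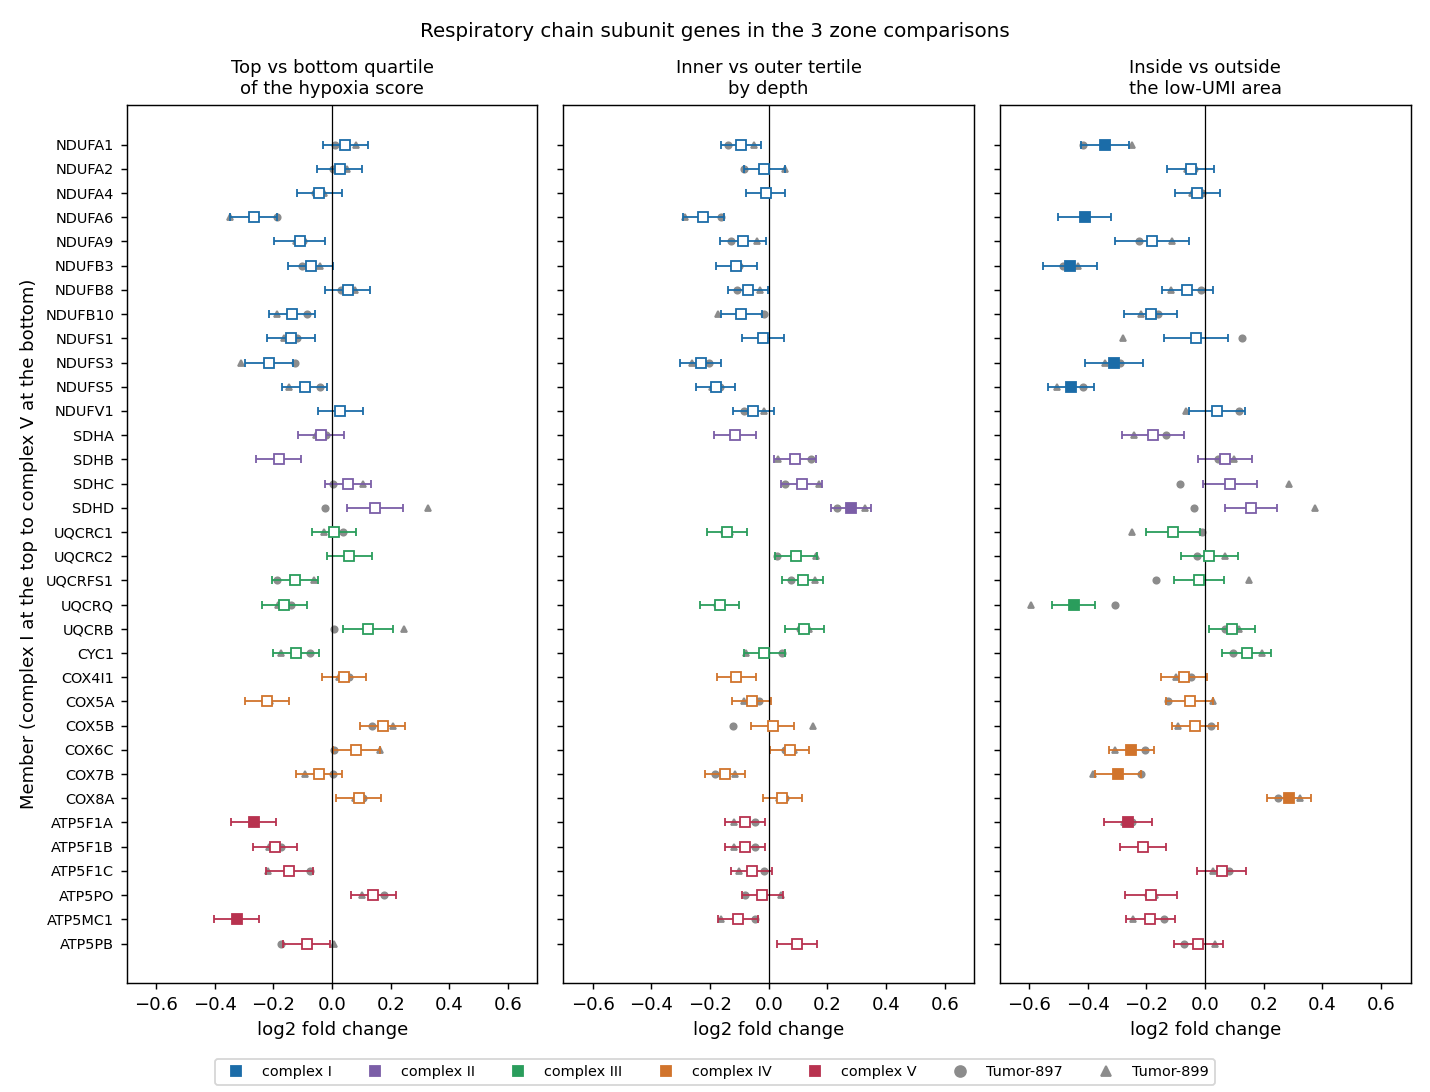
Log2 fold change of the 34 members in the 3 comparisons, as squares with SE bars colored by complex (filled where the edgeR adjusted p was under 0.05, open otherwise) and gray points for each tumor. The filled squares number 2, 1 and 10 from left to right, and the members lie between -0.46 (NDUFB3) and 0.29 (COX8A), both in the right panel.

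The comparisons share the same spots, so a joint fit over 8 sums, all zones of the same 2 sections, gave a term for spots above against spots below the median score and a term for the low-UMI area, each at a fixed level of the other. The low-UMI term called 9 members lower and 1 higher, the 10 named above, where 2.73% of 13999 genes were called lower and 4.19% higher. Of the 10 genes fixed as marks of the line, the low-UMI term called 1 higher and 3 lower. UQCRQ was at -0.45, NDUFS5 at -0.45, NDUFB3 at -0.47 and COX8A at 0.29 in it. Within Tumor-897 and Tumor-899 the same term was -0.30 and -0.60 for UQCRQ, -0.42 and -0.49 for NDUFS5, -0.49 and -0.45 for NDUFB3, and 0.25 and 0.33 for COX8A, values with no test since 1 section has no spread between tumors. With library size alone the split over all genes in this term went from 586 higher and 382 lower to 373 and 979.

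The score term called no member (edgeR), where 3.33% of genes were called lower and 4.66% higher; 3 of 34 members and 3015 of 13999 genes had an unadjusted p under 0.05, and DESeq2 called 1 lower, ATP5MC1. The median over members was -0.0047, and with library size alone the split over all genes went from 652 higher and 466 lower to 423 and 1025. ATP5MC1 was lowest at -0.22 ± 0.07 (edgeR adjusted p = 0.0558), followed by NDUFS3 at -0.21 and ATP5F1A at -0.15, and the highest was COX4I1 at 0.14. NDUFA4L2 stayed higher in this term (1.32 ± 0.30, edgeR adjusted p = 0.00566). The interaction of the terms called no member (edgeR; 1 of 34 members and 821 of 13999 genes at an unadjusted p under 0.05; none by DESeq2), where 0% of genes were called higher and 0.0786% lower. Its SE ranged from 0.13 to 0.24 over members, so a difference of that size between the score's effect inside and outside the area was within its error.

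How unevenly a member was spread over a section was described by Moran's I, which is near 0 for no spatial order and rises as adjacent spots resemble each other, and which also rises with a gene's count. UQCRQ had the highest value of the members in both tumors, 0.313 and 0.326, at the 98.5 and 99.2 percentiles of 4693 genes with enough UMIs, and it kept 0.312 and 0.272 outside the low-UMI area. COX6C and NDUFS5 were among the next in both, with 0.262 and 0.229 in Tumor-897 and 0.295 and 0.302 in Tumor-899. Unlike UQCRQ, they were much lower outside that area, at 0.125 and 0.124 in Tumor-897 and 0.0854 and 0.110 in Tumor-899. COX8A was lowest in both over the whole sections, at -0.0155 and 0.0521. Outside the low-UMI area it was at 0.0292 and 0.0365, at the 51.4 and 53.8 percentiles, and was not the lowest member. The median over the ranked genes was 0.0519 in Tumor-897 and 0.0908 in Tumor-899.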

How the data were processed

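UMI counts for each gene in each spot were deposited; Space Ranger 1.3.0 wrote them, per the file headers, and the submitters' processing notes name hg38. The matrices list human features, so host reads counted on human genes cannot be separated, and reads of near-identical gene copies may have been split.

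Spots on tissue were kept from 500 UMIs upward (2536 in Tumor-897, 2841 in Tumor-899). The hypoxia score was the mean z of log2 of 1 plus UMIs per 10000 over the 27 of 28 listed genes found in at least 5% of spots of both tumors, smoothed over adjacent spots. The border was any patch without tissue of at least 5 positions. Spots are not replicates, so UMIs were summed per tumor and zone: 4 sums in each main comparison and 8 in the joint fit. The sums were fitted in edgeR 4.0.16 (R 4.3.3) by a quasi-likelihood test with the tumor as a block, after filterByExpr and TMM scaling. A call is a Benjamini-Hochberg adjusted p under 0.05 over all genes tested, the score genes left out. Residual degrees of freedom were 1 in the main comparisons, 4 in the joint fit and 3 with the interaction; prior degrees of freedom were 8.58 (score), 18.1 (depth), unbounded (low-UMI area), 20.9 (joint) and 23.1 (interaction). The prior count behind log2 differences within a tumor was 2.

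Alternatives were DESeq2 1.42.0, its size factors in edgeR, library size alone, no filter, no tumor block, a minimum of 2000 UMIs, thinning to 1000 UMIs, other zone limits, the mitochondrial genome left out of the scaling, and spots rich in other cell markers or in the low-UMI area left out. The tests were also run on simulated counts with the same spread for every gene and the same zone difference in both tumors. That run cannot check calls where the tumors differ. The members, comparisons and lists were chosen with earlier results of these data known. Named were all 34 members, detected isoforms, and the 2 genes of each other chain list with the largest difference. Moran's I covered genes averaging 0.5 UMI or more in a spot. Promoters, positions and gene identifiers were matched by symbol in RefSeq tables (GRCh38.p14), which held promoters for 27 of 34 members. Python 3.11.15 ran matplotlib 3.10.9, pandas 2.3.3, scipy 1.17.1 and numpy 2.4.6.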

Additional observations from a re-analysis of the deposited data

How the results depend on the processing

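No called member changed sign in any setting run. Brackets give the genes called in the same direction among all genes tested in that setting. Score comparison, 2 members lower and 0 higher as reported: 10 were lower with library size alone (2144 of 14167). With the mitochondrial genome left out of the scaling 1 was lower (721 of 14154). DESeq2 gave 0 (112 of 8664), as did no tumor block (215 of 14167). Score deciles gave 6 (761 of 12419), the score of the single spot 4 (1562 of 14147) and thinned spots 1 (88 of 7677). Without the low-UMI area 1 was lower (411 of 14084). The 4 quartiles in 1 fit gave 8 lower (1565 of 14707) and 1 higher (1756 of 14707). Without spots rich in other cell markers 1 was higher (1494 of 13932). Depth, 1 higher and 0 lower: 0 were higher with library size alone (127 of 14730) or DESeq2 (21 of 13871). No tumor block (7 of 14730) and thinned spots (66 of 8899) also gave 0 higher. Members called lower were 3 without the filter (760 of 23909), 1 with depth quartiles (474 of 14110) and 4 with the frame edge as border (791 of 14771). Low-UMI area, 9 lower and 1 higher: 5 were lower with DESeq2 (69 of 4909) and with at least 2000 UMIs (173 of 15171). The lowest quintile of smoothed UMIs as the area also gave 5 lower (147 of 15061). Thinned spots gave 2 lower (36 of 9831) and no tumor block gave 0 (0 of 15318). With library size alone (390 of 15318) and no tumor block (3 of 15318) 0 were higher. The same held for 2000 UMIs (403 of 15171), the lowest quintile (265 of 15061) and thinned spots (91 of 9831). Joint fit, score term, 0 called: 3 were lower with library size alone (1025 of 13999). DESeq2 (129 of 10192), no filter (630 of 24823), 2000 UMIs (542 of 14010) and score tertiles (668 of 12994) each gave 1 lower. Joint fit, low-UMI term, 9 lower and 1 higher: 4 were lower with score tertiles (95 of 12994) and 3 with thinned spots (93 of 8312). In this term 0 were higher with library size alone (373 of 13999), 2000 UMIs (351 of 14010) and score tertiles (244 of 12994). COX8A also lost its call in this term with thinned spots. The interaction called 0 members in every setting run; score tertiles were not run for it. Fewer genes or spots enter the thinned, 2000-UMI and decile settings by construction, and the cause of the other changes was not tested.

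The median over members stayed below 0 in each of 16 settings of the score comparison (-0.17 to -0.01), 12 of depth (-0.13 to -0.05) and 11 of the low-UMI area (-0.16 to -0.06). Over all genes, calls ran from 225 (thinned spots) to 1774 (single-spot score) higher and 88 to 2144 (library size alone) lower in the score comparison, reported as 981 and 738; from 7 and 34 (no tumor block) to 589 and 791 (frame edge) by depth, reported as 331 and 489; and from 3 and 0 (no tumor block) to 798 (outside over 2 steps away) and 998 (library size alone) in the low-UMI area, reported as 663 and 424. In the joint fit they ran from 124 and 25 (thinned spots) to as many as 1025 lower (library size alone) for the score, reported as 652 and 466, and from 209 and 93 (thinned spots) to 672 and 979 for the low-UMI term, reported as 586 and 382. The interaction went from 0 higher and 11 lower to 2 and 51 without the filter. Leaving a tumor out of any comparison leaves no spread between tumors, so the values per tumor in the report stand in for it, with no test. The labels hold 1 group, so tumors of different groups could not be paired. Zones of the same section were paired by the tumor block. With 2 sections and few UMIs inside the low-UMI area, small differences in either direction were not detectable.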
